A study of Arabidopsis thaliana with 16 samples.

Results

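The plastid phosphate translocators are carriers of the inner plastid envelope, and 6 *Arabidopsis thaliana* genes for them were followed here: the glucose 6-phosphate translocators *GPT1* (AT5G54800) and *GPT2* (AT1G61800), the triose phosphate translocator *TPT* (AT5G46110), the phosphoenolpyruvate translocators *PPT1* (AT5G33320) and *PPT2* (AT3G01550), and the xylulose 5-phosphate translocator *XPT* (AT5G17630). They were chosen by their substrates and by their transcript levels in these same libraries, which were known when the family was picked, so their levels are described and no p-value is given for them. All 6 are among the 27655 genes of the files, and 5 of them passed the expression filter (more than 0.5 TPM in 50% of libraries or more), as did 17498 genes in all. *PPT2* is the exception and was listed at 0 in every library.

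RNA was sequenced from whole germinating seeds labelled *sweet1*, a T-DNA insertion line in the Col-0 background with an insertion in *SWEET1* (AT1G21460), which encodes a plasma membrane glucose transporter. All groups carry this label, and seeds received medium alone (control), 60 mM glucose (Glc), 5 µM abscisic acid (ABA) or both (ABA + Glc) for 6 h before harvest at 30 h after imbibition (HAI). Each treatment had 4 biological replicates, 16 libraries in all, and wild-type seeds were not analysed here. ABA replicate 3 and ABA + Glc replicate 3 have no column in the study's own expression table, and the study states that outliers were removed. The values below rest on the other 14 libraries, with those over 16 beside them where the 2 libraries matter.

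*SWEET1* transcripts lay between 8.29 and 17.59 TPM in the 16 libraries. The study describes the line as a null mutant, with no transcript detected by RT-PCR in mutant seeds. The levels here differ from that description, but a value per gene cannot tell whole transcripts from parts of them. There is also no wild-type value here to set the levels against. The comparisons below are between treatments of libraries that share the label. The deposited values summed to between 951008 and 1053766 per library, and log2 values of libraries of the same treatment correlated at 0.9812 to 0.9926. Summed transcripts of 4 seed reserve genes (storage globulins and oleosins) were 263.8 to 432.4 TPM in control, 363.4 to 544.1 in Glc, 2763 to 2999 in ABA and 2114 to 2449 in ABA + Glc libraries. *CRA1*, *OLEO1* and *OLEO2* had their highest means in ABA libraries. *CRU3* averaged 90.1 TPM in control, 154 in Glc, 185.5 in ABA and 216.6 in ABA + Glc libraries. Summed transcripts of 4 leaf mesophyll genes were 1858 to 2326 TPM over all libraries, nearly all of it *RBCS1A*. The other 3 were lower than the control in each treatment: *RBCS2B* averaged 40.6 TPM in control, 26.9 in Glc, 21.7 in ABA and 18.6 in ABA + Glc libraries, *LHCB3* 11.47, 6.75, 6.54 and 5.57 TPM and *CAB2* 0.565, 0.168, 0.157 and 0.203 TPM, in the same order. Transcripts of 2 endosperm genes summed to 142.1 to 237.8 TPM in 15 libraries and to 450.4 TPM in ABA + Glc replicate 3, with *EPR1* as the larger part. The other, *MAN7*, averaged 16.9 TPM in control, 29.0 in Glc, 48.7 in ABA and 52.8 in ABA + Glc libraries. No marker gene was listed at 0 throughout. The part of these markers in the results below was not tested.

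Plastids that do not fix enough carbon import it as phosphorylated sugars. GPT carriers exchange cytosolic glucose 6-phosphate for inorganic phosphate, which feeds starch synthesis and the oxidative pentose phosphate pathway. *GPT1* is needed for pollen and embryo sac development, whereas *GPT2* is known for its induction by sugars and by a shift to high light. TPT exports triose phosphate made in photosynthesis, PPT brings in phosphoenolpyruvate for the shikimate pathway and fatty acid synthesis, and XPT carries xylulose 5-phosphate and triose phosphate.

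The 2 GPT genes are the closest pair by protein. In TAIR10.1, *GPT2* lies on the plus strand of chromosome 1 from 22824414 to 22826902 and *GPT1* on the plus strand of chromosome 5 from 22261134 to 22263936, with 5 exons each. Both encode 388 residues in their first transcript models, of which 77.3% of 379 aligned residues are identical, against 58.4% between PPT1 and PPT2 and 37.0% to 49.7% between other pairs. Their coding sequences are 74.3% identical over 1136 aligned bases, and the longest run of identical bases is 20. The stretch around that run is shown because the contrast between *GPT1* and *GPT2* in the values rests on telling their reads apart. It is coding bases 644 to 763 in both genes, 120 bases with an intron inside (chr5:22262433-22262668 and chr1:22825560-22825771, plus strand), and capitals mark the 25 bases that differ.
GPT1: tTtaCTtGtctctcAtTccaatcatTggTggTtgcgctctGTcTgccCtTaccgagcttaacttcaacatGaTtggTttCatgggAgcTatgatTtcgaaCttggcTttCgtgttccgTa
GPT2: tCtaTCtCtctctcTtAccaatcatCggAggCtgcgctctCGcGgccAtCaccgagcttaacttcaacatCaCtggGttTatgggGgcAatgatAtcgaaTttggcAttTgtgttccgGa
No 31-base word of the *GPT1* transcript occurs in a transcript of another gene on the same strand, and 2 of 1839 of *GPT2* do, in AT4G03950, which held 0 to 1.42 TPM.

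The bases upstream of *GPT2* are shown because *GPT2* had the widest range of levels in the family, with those of *GPT1* and *TPT* for comparison. Each is the 250 bases before the annotated gene start, read from TAIR10.1 (*GPT2*, chr1:22824164-22824413; *GPT1*, chr5:22260884-22261133; *TPT*, chr5:18696985-18697234; all plus strand). Capitals mark a match to 1 of 4 words searched on both strands: CACGTG (G-box), ACGTG (the core of the ABA-responsive element, which the G-box contains), TTATCC (sugar-repressive element) and GATAAG (I-box).
GPT2: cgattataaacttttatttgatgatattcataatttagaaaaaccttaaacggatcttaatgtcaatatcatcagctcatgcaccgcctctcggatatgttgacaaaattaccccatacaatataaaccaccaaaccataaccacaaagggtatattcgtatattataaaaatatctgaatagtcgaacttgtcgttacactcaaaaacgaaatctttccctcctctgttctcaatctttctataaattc
GPT1: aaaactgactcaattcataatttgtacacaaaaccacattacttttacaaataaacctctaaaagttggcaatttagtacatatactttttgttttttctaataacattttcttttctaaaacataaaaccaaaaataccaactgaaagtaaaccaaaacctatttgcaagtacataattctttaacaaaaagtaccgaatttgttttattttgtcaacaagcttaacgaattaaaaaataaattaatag
TPT: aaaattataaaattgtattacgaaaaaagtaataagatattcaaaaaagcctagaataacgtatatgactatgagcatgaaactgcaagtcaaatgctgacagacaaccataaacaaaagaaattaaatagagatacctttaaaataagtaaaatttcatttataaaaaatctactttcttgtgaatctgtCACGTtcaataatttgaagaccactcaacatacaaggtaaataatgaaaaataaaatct
The single match among the 6 genes was an ACGTG on the minus strand at 59 to 55 bases before the *TPT* start. Of 27443 such upstream regions of protein-coding genes, 6.5% held CACGTG, 22.9% ACGTG, 12.5% TTATCC and 12.3% GATAAG. A match is a description of letters, and none of the 4 words occurs in these windows of *GPT2* and *GPT1*.

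*GPT2* was the family member whose transcript level differed most between treatments. Its mean level under Glc was 2.95-fold that of the control, its level under ABA was 0.551 of the control, and seeds given both held 0.791 of it. Control replicates 1 to 4 held 11.27, 11.67, 10.33 and 9.79 TPM, with a mean of 10.8 ± 0.859 (SD, n = 4). Glc replicates 1 to 4 held 32.01, 34.76, 30.74 and 29.33 TPM, a mean of 31.7 ± 2.31 (SD, n = 4). The lowest Glc library was thus above every library of the other 3 treatments. In ABA replicates 1 to 4 the values were 5.58, 5.97, 6.48 and 6.23 TPM, and in ABA + Glc replicates 1 to 4 they were 8.98, 8.19, 7.59 and 8.37 TPM. Means over the 3 libraries kept in each were 5.93 ± 0.327 and 8.51 ± 0.414 TPM (SD, n = 3). The order was Glc, control, ABA + Glc and ABA, and no neighbours in it overlapped, over 14 libraries or over 16. How many of all tested genes separate in this way was not counted, so a lack of overlap is only a description, here and below. In whole seeds, less RNA per cell and fewer cells of a type cannot be told apart.

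On the log2(TPM + 0.5) scale, the change of *GPT2* under Glc was 1.52 (SE 0.071), which stood at rank 6 from the top among the 17498 genes. Under ABA the log2 fold change was -0.81 (SE 0.077), and ABA + Glc against the control gave -0.32 (SE 0.077). With ABA present, adding Glc gave a log2 fold change of 0.49 (SE 0.082), which is 1.4-fold, against 2.86-fold without ABA on the same scale. The Glc effect with ABA minus that without, called the interaction here, was -1.03 (SE 0.109). Set against Glc alone, ABA + Glc was -1.84 (SE 0.077), at rank 16 from the bottom. Over 16 libraries these 6 values were 1.52, -0.78, -0.36, 0.42, -1.10 and -1.87, in the order given. The *GPT2* values were therefore little moved by the 2 libraries.

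**Figure D1:**
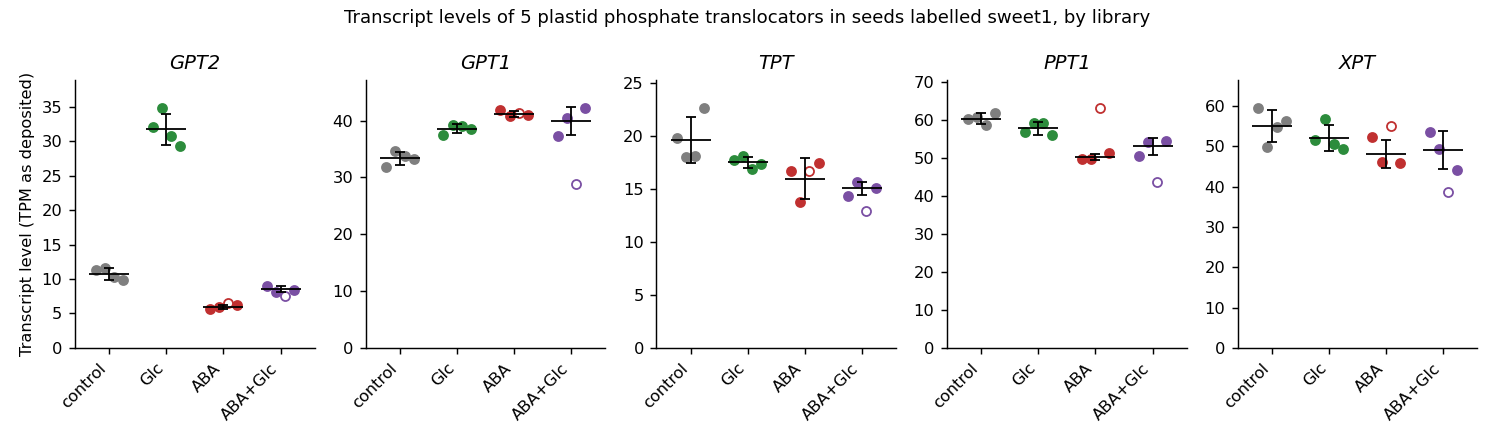
Transcript levels (TPM as deposited, y axes from 0 and different in each panel) of 5 translocator genes by treatment in seeds labelled *sweet1*. Points are libraries (open: ABA replicate 3 and ABA + Glc replicate 3), horizontal lines and bars are the mean and SD over the 14 libraries; the 4 Glc libraries of *GPT2* (29.33 to 34.76 TPM) stand above all others, and *XPT* overlaps between all treatments.

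*GPT1*, the second glucose 6-phosphate carrier, had a narrow range and was higher than the control in all 3 treatments. Its control libraries held 31.89, 34.62, 33.68 and 33.2 TPM (33.4 ± 1.14, SD, n = 4) and its Glc libraries 37.49, 39.16, 39.08 and 38.47 TPM (38.6 ± 0.771, SD, n = 4). These groups did not overlap. ABA replicates 1 to 4 held 41.78, 40.85, 41.38 and 40.97 TPM, so that ABA lay above Glc with no overlap, and the mean of the 3 kept libraries was 41.2 ± 0.506 TPM (SD, n = 3). ABA + Glc replicates 1 to 4 held 37.3, 40.4, 28.83 and 42.12 TPM, and the mean of the 3 kept was 39.9 ± 2.44 (SD, n = 3). Replicate 3, the library with 450.4 TPM of endosperm markers, was the lowest *GPT1* value of all 16, and the other 3 overlapped with both Glc and ABA. Log2 fold changes against the control were 0.21 (SE 0.044) for Glc, 0.30 (SE 0.047) for ABA and 0.26 (SE 0.047) for ABA + Glc, the last being 0.14 over 16 libraries.

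The 2 genes differed in direction under ABA. *GPT2* was lower and *GPT1* higher than the control in every ABA library, and under Glc both were higher. The ratio of *GPT2* to *GPT1* was 0.323 ± 0.0270 in control (SD, n = 4), 0.823 ± 0.0581 in Glc (SD, n = 4), 0.144 ± 0.00945 in ABA (SD, n = 3) and 0.214 ± 0.0232 in ABA + Glc libraries (SD, n = 3). Glc alone was the treatment in which the levels of the 2 genes, which TPM gives per length, came closest. Their sum was 44.1 ± 1.52 TPM in control, 70.3 ± 2.60 in Glc, 47.1 ± 0.277 in ABA and 48.4 ± 2.11 in ABA + Glc libraries, so the ABA sum differed from the control by less than the change of either gene. For *GPT1* the interaction was -0.25 (SE 0.067), and -0.37 over 16 libraries.

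*TPT*, the exporter of photosynthetic triose phosphate, was the least abundant of the other 3 detected carriers. Control replicates 1 to 4 held 19.86, 18.01, 18.15 and 22.62 TPM, and Glc replicates 17.72, 18.1, 16.9 and 17.41 TPM, with overlap. In ABA replicates the levels were 16.7, 13.81, 16.75 and 17.5 TPM, and in ABA + Glc replicates 14.39, 15.67, 12.92 and 15.13 TPM. Both treatments with ABA lay below the control without overlap, and they overlapped with each other. Log2 fold changes against the control were -0.16 (SE 0.080) for Glc, -0.29 (SE 0.086) for ABA and -0.37 (SE 0.086) for ABA + Glc.

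*PPT1*, a phosphoenolpyruvate carrier, was the most abundant member in 12 of the 14 libraries (14 of all 16), with *XPT* above it in ABA replicate 1 and ABA + Glc replicate 1. Its control and Glc libraries held 58.58 to 61.87 and 55.96 to 59.33 TPM. ABA replicates 1 to 4 held 49.84, 49.71, 63.05 and 51.3 TPM, and the ABA value turns on replicate 3: the log2 fold change was -0.26 (SE 0.041) without it and -0.18 (SE 0.077) over 16 libraries. ABA + Glc replicates held 50.54, 54.26, 43.56 and 54.58 TPM, a log2 fold change of -0.18 (SE 0.041), or -0.25 over 16 libraries. The 3 kept libraries of either ABA treatment were below every control and Glc library, but with ABA replicate 3 the ABA group overlapped all others. *PPT1* shares 131 of its 1746 words of 31 bases (7.5%) with 3 other loci: AT1G43310, which held at most 1.28 TPM, and the annotated pseudogenes AT2G26220 and AT3G30885, which were not analysed here. Its level is uncertain to the extent that reads were split among them.

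*PPT2*, the second phosphoenolpyruvate carrier, was listed at 0 in all 16 libraries, as were 5077 of the 27655 genes, and no fold change is given. *XPT*, an intronless gene, held 49.9 to 59.36 TPM in control, 49.43 to 56.7 in Glc, 45.86 to 54.97 in ABA and 38.65 to 53.65 in ABA + Glc libraries, and every pair of treatments overlapped. Its log2 fold changes against the control were -0.08 (SE 0.069), -0.20 (SE 0.074) and -0.17 (SE 0.074) in the same order of treatments. An antisense lncRNA, AT5G02755, overlaps *XPT* over 296 bases, and without knowledge of strand their reads cannot be told apart.

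**Figure D2:**
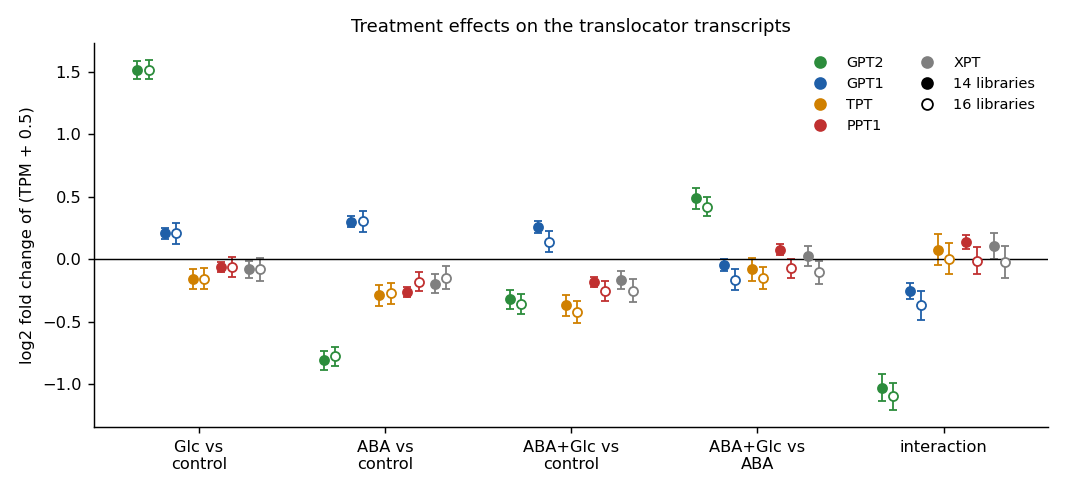
Log2 fold change of TPM + 0.5 for 5 translocators in 5 contrasts, with bars of 1 SE from limma; filled points are over 14 libraries and open points over 16. *GPT2* stands apart at 1.52 under Glc and -1.03 in the interaction. Open and filled points of *GPT1* and *PPT1* separate in the contrasts that include ABA + Glc replicate 3. Those of *PPT1* also separate under ABA, and those of *XPT* between ABA + Glc and ABA and in the interaction.

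A gene was counted as called at a Benjamini-Hochberg adjusted p under 0.05 over all 17498 genes and a log2 change of at least 0.289, which is 1.22-fold. Since the members were chosen with these levels known, nothing is read from their counts, which are given beside the background only. Under Glc, 1 of 5 members was called higher (*GPT2*) and 0 lower, where 1.14% of all genes were called higher and 2.95% lower. Under ABA 1 was called higher (*GPT1*) and 2 lower (*GPT2*, *TPT*), against 10.4% and 13.3% of all genes. In ABA + Glc against the control 0 were called higher and 2 lower (*GPT2*, *TPT*), against 6.95% and 10.1%. Between ABA + Glc and ABA, *GPT2* was called higher (background 0.732% higher and 1.91% lower), and in the interaction *GPT2* was called lower (background 1.79% higher and 1.94% lower). Some of these calls depend on the fit. That of *GPT2* in ABA + Glc against the control was lost without control replicate 2. The call of *GPT1* under ABA was lost without control replicate 1 or with each library scaled to the same sum, and that of *TPT* under ABA when ABA replicate 2 or control replicate 1 or 4 was left out, over 16 libraries, with ABA replicate 3 added alone, with a pseudocount of 1 and in a fit on those 2 treatments alone. Calls were gained for *GPT1*, higher in ABA + Glc without ABA + Glc replicate 1 and lower in the interaction without ABA + Glc replicate 4, and for *PPT1*, lower under ABA with each library scaled to the same sum.

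In the make-up of the family, the share of *GPT2* differed most from the control under Glc, and that of *GPT1* under ABA and ABA + Glc. Summed levels of the 6 genes were 179.2 ± 4.65 TPM in control, 197.7 ± 7.38 in Glc (SD, n = 4 each), 161.5 ± 4.81 in ABA and 165.7 ± 1.92 in ABA + Glc libraries (SD, n = 3 each). *GPT2* made up 6.01% ± 0.562 of the sum in control, 16.03% ± 0.612 in Glc, 3.67% ± 0.273 in ABA and 5.14% ± 0.288 in ABA + Glc libraries. *GPT1* took 18.6%, 19.5%, 25.5% and 24.1%, in the same order. *TPT* stayed between 8.87% and 10.9% on average, *PPT1* between 29.3% and 33.7%, and *XPT* between 26.3% and 30.7%. The sum in ABA + Glc replicate 3 was 131.6 TPM, the lowest of all 16, and in ABA replicate 3 it was 182.6 TPM, above the 156.5 to 166.1 TPM of the other ABA libraries. In ABA + Glc replicate 3 the *GPT2* share was 5.77%, against 4.88% to 5.45% in the other 3 libraries.

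**Figure D3:**
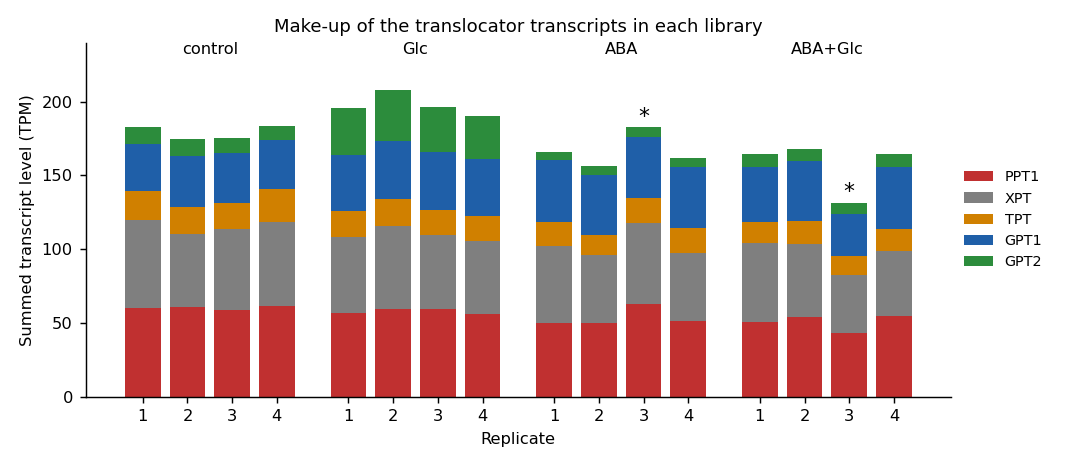
Stacked transcript levels (TPM) of the detected translocators in each of the 16 libraries, grouped by treatment, with replicate numbers on the x axis and asterisks on the 2 libraries kept out of the 14. *GPT2* takes 15.4% to 16.7% of the sum in Glc libraries and at most 6.67% in the others.

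The genes whose pattern was most like that of *GPT2* were sought among all tested genes, by the root mean square difference of log2(TPM + 0.5) centred on each gene's mean over the 14 libraries. The nearest was *PDC1* (AT4G33070), which encodes a pyruvate decarboxylase, at 0.448. It held 123 ± 7.93 TPM in control, 175 ± 12.5 in Glc, 68.0 ± 6.90 in ABA and 86.8 ± 7.004 in ABA + Glc libraries (SD, n = 4, 4, 3 and 3). The order of treatments was that of *GPT2*, by which likeness it was picked. Next were *WRKY40* (AT1G80840), a transcription factor gene, at 0.495, *PGSIP8* (AT2G35710) at 0.505, AT1G78860 at 0.515 and *XTH31* (AT3G44990), a xyloglucan endotransglucosylase/hydrolase gene, at 0.540. None of the 5 had as large a Glc difference as *GPT2*: the log2 changes were 0.38 to 0.63, against 1.52. Those of *WRKY40*, *PGSIP8* and AT1G78860 were not called (adjusted p = 0.153, 0.234 and 0.197 by limma). *XTH31* was the only one of the 5 with a higher mean in ABA + Glc (277 TPM) than in control libraries (255 TPM). *WRKY40*, *PGSIP8* and AT1G78860 were low, at mean levels of at most 2.59 TPM in every treatment. Over 16 libraries 4 of the 5 were again among the nearest 5, and with a pseudocount of 1 there were 3.

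For *GPT1* the nearest gene was its neighbour *TSB1* (AT5G54810), which encodes a tryptophan synthase beta subunit, at a root mean square difference of 0.0438. It lies on the opposite strand, and its end is separated from the end of *GPT1* by 657 bases, with 0 annotated genes between. *TSB1* held 86.0 ± 0.944 TPM in control, 98.0 ± 2.55 in Glc, 103 ± 3.29 in ABA and 102 ± 2.70 in ABA + Glc libraries (SD, n = 4, 4, 3 and 3). AT3G26380 followed at 0.0441 and *VHA-E1* (AT5G55290) at 0.0489. Over 16 libraries 0 of the 3 were among the nearest 3.

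**Figure D4:**
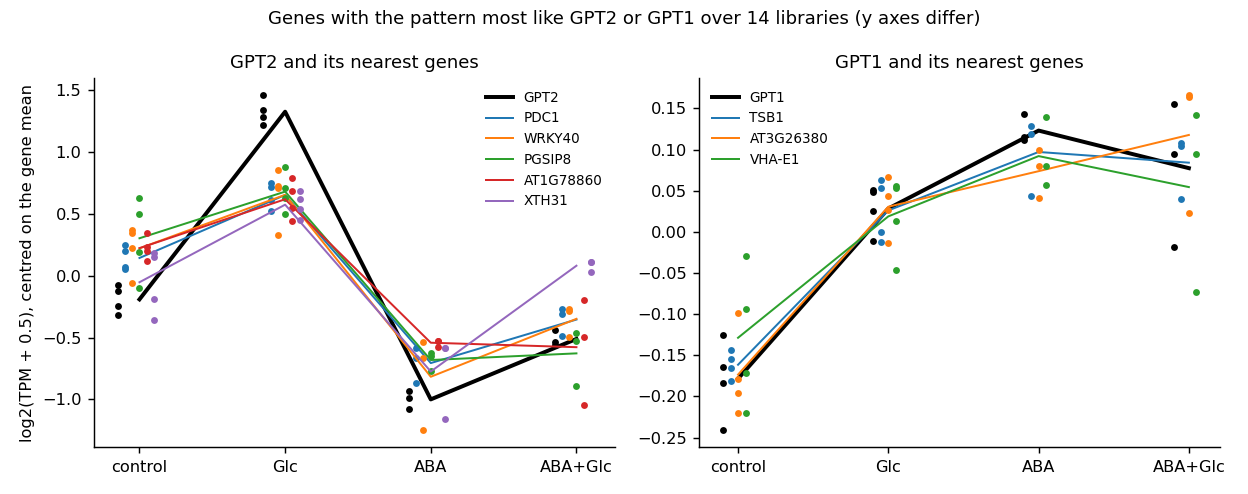
Log2(TPM + 0.5) centred on each gene's mean over 14 libraries, for *GPT2* with its 5 nearest genes and *GPT1* with its 3 nearest (y axes differ). Points are libraries and lines join treatment means; *GPT2* spans more than any of its nearest genes, whose Glc changes against the control are 0.38 to 0.63.

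Enzymes and carriers that work beside the translocators were counted in 6 lists of 68 genes, of which 67 were tested. The lists, like the members, were chosen with earlier results of these data known. Their shares and adjusted p-values are therefore a description and no independent test. Under Glc 3 were called higher and 0 lower (4.48% and 0%), and under ABA 15 higher and 5 lower (22.4% and 7.46%), to be read against the background shares above. In ABA + Glc against the control 10 were called higher and 2 lower (14.9% and 2.99%), between ABA + Glc and ABA 0 higher and 2 lower, and in the interaction 0 higher and 6 lower (8.96%). Over 16 libraries the balance in ABA + Glc against the control was 7 higher and 8 lower, under ABA 15 higher and 4 lower, and in the interaction 0 higher and 5 lower. Median log2 changes of all tested genes lay between -0.0031 and 0.0017 in the 5 contrasts. List medians under Glc and under ABA were 0.08 and 0.31 for sucrose synthesis, 0.13 and 0.15 for starch, 0.07 and -0.01 for the pentose phosphate pathway, 0.10 and -0.07 for phosphoenolpyruvate to acetyl-CoA, 0.06 and -0.04 for the shikimate pathway and 0.03 and 0.03 for other carriers. Of the genes called in the whole fit, 27.9% were higher under Glc, 43.9% under ABA and 27.6% between ABA + Glc and ABA. With each library scaled to the same sum, these shares of the called genes were 43.1%, 30.6% and 41.5%.

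Cytosolic sucrose synthesis, which uses the triose and hexose phosphates on the other side of the envelope, had the most calls. Of its 11 tested genes 7 rose under ABA. *SPS3F* (AT1G04920), a sucrose phosphate synthase gene, went from 3.29 ± 0.367 TPM in control to 29.4 ± 1.29 in ABA libraries (log2 change 2.98, adjusted p = 1.31e-12 by limma). *PGM2* (AT1G70730), a cytosolic phosphoglucomutase gene, rose by 0.91 (adjusted p = 8.93e-10). Glc raised *SPS3F* by 0.47 (adjusted p = 0.00433) without ABA and lowered it with ABA by a log2 change of -0.55 (adjusted p = 0.00645), so its interaction was -1.03 (adjusted p = 0.000467). That of *PGM2* was -0.37 (adjusted p = 0.00708). In ABA + Glc against the control 5 of the 11 rose (4 over 16 libraries), among them *SPS3F* (2.43) and *PGM2* (0.75). *UGP2* (AT5G17310), which encodes a UDP-glucose pyrophosphorylase, fell between ABA and ABA + Glc by a log2 change of -0.33 (adjusted p = 0.028), a call lost when any 1 of the 6 libraries of these treatments was left out (adjusted p 0.0686 to 0.11).

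Of 16 starch genes, 4 rose under ABA, 3 in ABA + Glc and 1 under Glc. *SBE2.1* (AT2G36390), a starch branching enzyme gene, rose by 0.54 under ABA (adjusted p = 2.27e-06) and 0.47 in ABA + Glc (adjusted p = 1.59e-05). The plastid phosphoglucomutase gene *PGM1* (AT5G51820), which acts on the glucose 6-phosphate that GPT imports, rose by 0.43 under ABA (adjusted p = 0.000103). *GBSS1* (AT1G32900), encoding granule-bound starch synthase, was the one called under Glc, at 13.9 ± 0.841 TPM in control and 18.1 ± 0.930 in Glc libraries (log2 change 0.37, adjusted p = 0.00329). Interactions were called lower for *GBSS1* (-0.42, adjusted p = 0.0258) and *PGM1* (-0.36, adjusted p = 0.0408), and leaving out single libraries lost the first in 6 cases (control 1, Glc 3, ABA 1 and 2, ABA + Glc 2 and 4) and the second in 11 (all but control 2, Glc 3 and ABA 1). *ISA2* (AT1G03310), an isoamylase gene, rose by 0.37 in ABA + Glc (adjusted p = 0.0146), a call lost without ABA + Glc replicate 2 (0.0509) or 4 (0.0535) and over 16 libraries (0.123). Over 16 libraries the starch list had 1 call higher and 1 lower in ABA + Glc.

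In the plastid pentose phosphate pathway, the other route for imported glucose 6-phosphate, *TKL2* (AT2G45290), a transketolase gene, stood apart from the other 10 genes under ABA. It rose by 1.28 under ABA (9.55 ± 0.443 TPM in control, 23.9 ± 0.607 in ABA libraries, adjusted p = 1.48e-09), by 1.11 in ABA + Glc (adjusted p = 1.30e-08) and by 0.32 under Glc (adjusted p = 0.0104), with an interaction of -0.48 (adjusted p = 0.0139). Without Glc replicate 2 its Glc change was 0.28, under the minimum. *PGD3* (AT5G41670), of the same list, changed by 0.285 under Glc (adjusted p = 0.000384 by limma), also under the minimum. *G6PD2* (AT5G13110), a glucose 6-phosphate dehydrogenase gene of the oxidative steps, fell under ABA by a log2 change of -0.36 (adjusted p = 0.000282), and in all 3 genes were called higher and 1 lower there.

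The 8 genes from phosphoenolpyruvate to acetyl-CoA, downstream of PPT, had 2 calls under ABA, both lower. *PDH-E1 BETA* (AT1G30120), a subunit gene of the plastid pyruvate dehydrogenase, changed by -0.61 (adjusted p = 5.15e-05), and *PKP-BETA2* (AT1G32440), a plastid pyruvate kinase gene, by -0.58 (adjusted p = 4.91e-05). Both were also lower in ABA + Glc, at -0.48 (adjusted p = 0.000812) and -0.31 (adjusted p = 0.012), the latter lost without ABA + Glc replicate 2 (-0.24) or control replicate 3 (-0.28). Of 9 shikimate pathway genes, which also use phosphoenolpyruvate, 0 were called by limma in any of the 5 contrasts. At an unadjusted p under 0.05 there were 0 under Glc, 3 under ABA, 3 in ABA + Glc, 0 between ABA + Glc and ABA, and 1 in the interaction. How many of all tested genes reach that level was not counted, so such counts are only a description, here and below.

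Among 12 other carriers of the plastid envelope 0 were called under Glc (3 at an unadjusted p under 0.05), with log2 changes from -0.13 to 0.26. The highest was that of *DIT2-2* (AT5G64280), a dicarboxylate carrier gene, with an adjusted p of 0.01455 by limma but a change under the minimum. Under ABA *DIT2-2* rose by 0.38 (adjusted p = 0.00022). *BT1* (AT4G32400), an adenine nucleotide carrier gene, fell under ABA by a log2 change of -0.33 (adjusted p = 0.000231), which was -0.25 and under the minimum without ABA replicate 4. *DIT2-2* was also higher in ABA + Glc (0.31, adjusted p = 0.00216), and 0.28 with libraries scaled to the same sum. Its interaction of -0.34 (adjusted p = 0.0476) was lost in 11 of the 14 fits that left out a library (all but control 4, Glc 4 and ABA 1) and over 16 libraries (adjusted p = 0.0655).

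**Figure D5:**
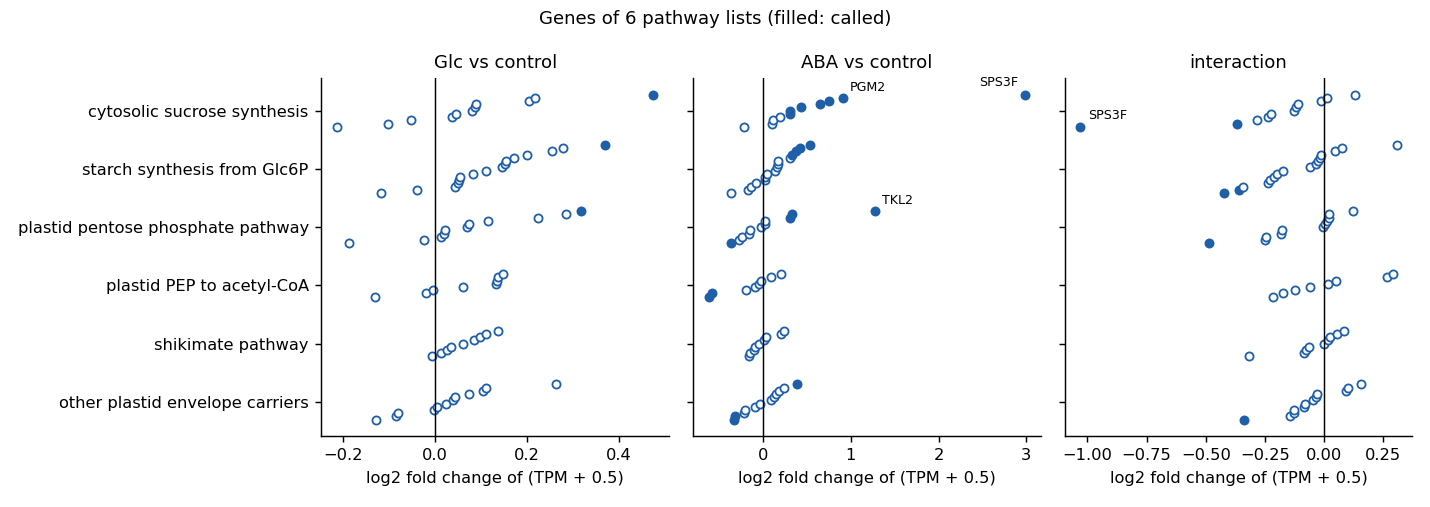
Log2 fold change of TPM + 0.5 for each tested gene of the 6 lists under Glc, under ABA and in the interaction (x axes differ); filled points are genes called by limma over all 17498 genes. *SPS3F* (2.98) and *TKL2* (1.28) lie farthest out under ABA.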

How the data were processed

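RNA sequencing libraries were grouped by the treatment and replicate number of their labels. According to the submitters' notes and the study's methods, the authors used Trimmomatic 0.38 for trimming, kallisto 0.44.0 for quantifying the primary transcripts of Araport 11, and sleuth. The files they deposited hold 1 score for each gene, headed TPM. No source used here says how the authors scaled this score from library to library. The median ratio of each library to the mean profile was 0.9994 to 1.0089, while sums were 951008 to 1053766. Depth cannot be had from such values, and the replicates alone give the precision. Labels and methods name different sequencers.

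Genes over 0.5 in at least 50% of libraries were fitted with limma 3.58.1 (R 4.3.3, trended prior variance) on log2(value + 0.5), in 1 model of 4 treatment means, with Benjamini-Hochberg adjustment over 17498 genes (17500 over 16 libraries). The minimum log2 change, 0.289, is 0.2 on the natural log scale, as in the study. The members and gene lists were chosen with earlier results of these data known. Genes named are the 6 members, the 5 and 3 nearest genes, and per list and contrast the 2 called genes with the largest change. *PGD3* and *DIT2-2* are named under Glc as well, for changes under the minimum with an adjusted p under 0.05. The fit was tested on simulated data. Alternatives were all 16 libraries, other pseudocounts and filters, scaling to the same sum, a replicate block, no trend, pairs of groups alone and each library left out. Of 27655 gene identifiers, 27445 matched TAIR10.1, which gave coordinates, sequences and transcript models; proteins were compared after global alignment, and none is printed.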

Additional observations from a re-analysis of the deposited data

Results flagged for a closer look

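*PPT1* in ABA replicate 3 stood far from the other libraries of its treatment, at 63.05 TPM against 49.71 to 51.3 TPM. The gap to its nearest neighbour was 0.881 of the whole range, over the critical value of Dixon's test for 4 values. It was 1 of 20 groups of 4 libraries examined, and chance alone gives about 1 in 20. The library is 1 of the 2 kept out of the 14.

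A set of 6 pathway genes had a Glc effect with ABA that differed from their Glc effect without ABA, by the interaction term of limma. On the log2 scale the differences were -1.029 for *SPS3F* (adjusted p = 0.000467), -0.4844 for *TKL2* (adjusted p = 0.0139), -0.4231 for *GBSS1* (adjusted p = 0.0258), -0.369 for *PGM2* (adjusted p = 0.00708), -0.3589 for *PGM1* (adjusted p = 0.0408) and -0.3393 for *DIT2-2* (adjusted p = 0.0476). All 6 were negative. The calls of *SPS3F*, *PGM2* and *TKL2* held in every fit that left out a library; those of *GBSS1*, *PGM1* and *DIT2-2* were lost in 6, 11 and 11 of the 14 such fits.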

How the results depend on the processing

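The directions of *GPT2* in all contrasts held in every alternative run. Over all 16 libraries the log2 changes that moved by more than the spread between replicates were those of *PPT1* (ABA -0.18, ABA + Glc -0.2537, ABA + Glc against ABA -0.0737, interaction -0.0121), *GPT1* (ABA + Glc 0.1402, against ABA -0.1629, interaction -0.3696) and *XPT* (against ABA -0.1042, interaction -0.0236). Against ABA and in the interaction, *PPT1* and *XPT* thereby changed sign. Over the 14 libraries these values were 0.0779 and 0.1395 for *PPT1* and 0.0286 and 0.1092 for *XPT*. Adding ABA replicate 3 alone, an alternative chosen after seeing the data, gave *PPT1* -0.18, -0.003 and 0.0585 for ABA, ABA + Glc against ABA and the interaction. Adding ABA + Glc replicate 3 alone, likewise, gave *GPT1* 0.1402, -0.1614 and -0.3681 and *PPT1* -0.2537, 0.0072 and 0.0688 for ABA + Glc, against ABA and the interaction, and 469 genes called under Glc. A filter of at least 10 TPM left 10343 genes, with 2360 called under ABA and 1625 in ABA + Glc, and 7 and 0 pathway genes called in ABA + Glc and against ABA. *SPS3F*, *UGP2*, *PKP-BETA2* and *ISA2* did not pass that filter, so their calls were not tested in it. Scaling every library to the same sum gave 6 pathway genes called under Glc, 1 against ABA, and log2 changes of 0.2304 for *GPT1* and -0.3323 for *PPT1* under ABA and 0.1206 for *PPT1* against ABA. Leaving out 1 library gave 281 to 509 genes called between ABA + Glc and ABA (281 without ABA replicate 1, 284 without ABA + Glc replicate 1, 463 with all), 1 to 2 pathway genes called there and 3 to 5 in the interaction. Deviations of same-numbered replicates from their treatment means correlated at -0.053 to 0.124 over genes (19 pairs, 1 over 0.1). Such correlations cannot exclude a shared batch that affects part of the genes. With a replicate block 717 genes were called under Glc, against 716 without. Depth is unknown, so low values such as those of *PPT2* carry no floor. Where not stated otherwise, the cause of a move was not tested.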
